A study of Mus musculus with 9 samples.

Results

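Smooth muscle relaxation by nitric oxide and cyclic GMP (cGMP) was examined here through 9 mouse genes and the chromatin around them. They were *Nos1*, *Nos2*, *Nos3*, *Prkg1*, *Pde5a*, *Pde3a*, *Npr1*, *Npr2* and *Npr3*, taken as a named list from the 21728 protein-coding genes analysed. Chromatin immunocleavage sequencing (ChIC-Seq), in which an antibody brings micrococcal nuclease to its target and the DNA cut nearby is sequenced, had been performed on primary smooth muscle cells of the oviduct. The cells came from WT mice 8 to 12 weeks old on day 2 of pregnancy, with no transgene or drug treatment named in the labels. Libraries were made for PBRM1 (BAF180), which is found in the PBAF class of SWI/SNF chromatin remodelers, for BRG1, an ATPase that drives such remodelers, and for control IgG, with 3 replicates each. The experiment addressed where these proteins bind directly. The IgG libraries were not analysed here. The cells had been released from minced oviduct by enzymes, filtered and held in culture for hours before fixation, so each library could contain other oviductal cell types.

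Nitric oxide is made from arginine by the nitric oxide synthases NOS1, NOS2 and NOS3, known as the neuronal, inducible and endothelial enzymes respectively. It diffuses into smooth muscle and activates soluble guanylyl cyclase, and natriuretic peptides raise cGMP separately through the receptor cyclases NPR1 and NPR2. cGMP activates the kinase PRKG1, which lowers cytosolic calcium and the calcium sensitivity of the contractile machinery, and phosphodiesterases end the signal. Nitric oxide is known to relax the muscle of the oviduct, the tube through which the early embryo travels to the uterus.

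The peak lists of the 6 PBRM1 and BRG1 libraries and the 2 lists called on pooled replicates were used. A locus was the gene body in GENCODE M21 (GRCm38) with 20 kb on each side. Overlapping peaks of the 6 replicate lists were merged into regions. A region was assigned to the gene's own promoter if an annotated transcript start of that gene was no more than 2 kb from its summit, at a neighbour's promoter when it lay that close only to a start of another gene, and distal otherwise. The level of a peak is its pileup, the number of fragments over the summit, which is also given as FPM, the pileup per 1000000 fragments of the library. The 6 libraries held 14284532 to 23992352 fragments and 31944 to 39434 peaks on the autosomes and X, and the PBRM1 libraries were the deeper. The lowest pileup that was called was 6 to 8 fragments, or 0.333 to 0.420 FPM, and peaks were called by q against the local background, so an uncalled site can have a pileup above this and is not shown to be free of either protein. The promoters of 5 of 10 smooth muscle marker genes had a peak in all 6 lists, against 0 of 7 epithelial, 0 of 5 immune, 1 of 5 endothelial (*Tek*) and 1 of 5 fibroblast and interstitial markers (*Kit*), while 41.8% of all protein-coding genes had one. *Cnn1*, a smooth muscle marker, had none in any list. These are positions of PBRM1 and BRG1 and not levels of RNA, and nothing here says which cell type a peak came from.

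The 9 loci held 300 peaks of the replicate lists, which merged into 131 of the 82949 regions found genome-wide. The windows below were read from GRCm38.p6 (RefSeq, plus strand, 5′ to 3′). For 6 of the genes they show the strongest own-promoter or distal region with a peak in at least 4 lists. Neighbour promoters were left out, strength was the mean FPM over libraries with a peak, and each window was kept clear of annotated exons. Each is centred on the BRG1 summit of the pooled list, with CpG dinucleotides in capitals, so that a reader can see the DNA beneath the peaks described later. The *Pde5a* window was moved 775 bases upstream to clear an exon. No exon-free window was found within the *Pde3a* promoter region, which is therefore not shown.

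Prkg1, distal, chr19:31762821-31762971: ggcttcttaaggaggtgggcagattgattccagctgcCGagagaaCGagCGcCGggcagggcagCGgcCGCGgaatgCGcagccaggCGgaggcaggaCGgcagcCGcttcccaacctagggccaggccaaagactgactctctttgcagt
Npr1, distal, chr3:90446349-90446499: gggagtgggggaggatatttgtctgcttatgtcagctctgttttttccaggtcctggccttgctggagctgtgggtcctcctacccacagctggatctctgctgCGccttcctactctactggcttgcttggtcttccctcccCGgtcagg
Pde5a, own promoter, chr3:122729419-122729569: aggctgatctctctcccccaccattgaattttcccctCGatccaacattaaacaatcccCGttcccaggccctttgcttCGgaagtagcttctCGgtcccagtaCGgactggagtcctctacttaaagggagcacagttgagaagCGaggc
Nos2, distal, chr11:78973358-78973508: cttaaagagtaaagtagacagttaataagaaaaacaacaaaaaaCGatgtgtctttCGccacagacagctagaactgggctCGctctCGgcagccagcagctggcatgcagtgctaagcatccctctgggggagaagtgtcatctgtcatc
Npr2, own promoter, chr4:43630156-43630306: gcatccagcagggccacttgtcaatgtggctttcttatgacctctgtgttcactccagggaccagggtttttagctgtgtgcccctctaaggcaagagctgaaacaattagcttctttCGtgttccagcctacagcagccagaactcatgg
Npr3, distal, chr15:11836298-11836448: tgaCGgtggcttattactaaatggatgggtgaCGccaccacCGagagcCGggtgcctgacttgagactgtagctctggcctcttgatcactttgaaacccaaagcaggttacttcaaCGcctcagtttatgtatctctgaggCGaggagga

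The *Prkg1* window was the richest in CpG, with 11 and a GC content of 64.9%. The *Pde5a* and *Npr3* windows had 6 each, the *Nos2* window 4, the *Npr1* window 2 and the *Npr2* window 1. For regions with a peak in at least 4 lists genome-wide, the median window of the same length held 12 CpG at promoters and 2 at distal sites. Both strands were searched for AP-1 (TGANTCA), CRE (TGACGTCA), TEAD (GGAATG), RUNX (TGTGGT), GC box (GGGCGG) and the letters CCAAT, and for the CArG box, the MEF2 box and the palindrome bound by steroid receptors. Across the 6 windows only the TEAD letters were found, at position 72 of the *Prkg1* window counted from its 5′ end. The same letters were in 5.75% of promoter windows and 12.7% of distal windows genome-wide, and the other motifs, which may overlap each other, were in 0.236% to 41.7% of promoter windows.

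A promoter peak in all 6 lists was found for 3 of the 9 genes, *Prkg1*, *Pde3a* and *Npr3*, where 41.8% of all protein-coding genes had one. Another 4 genes, *Pde5a*, *Npr2*, *Npr1* and *Nos1*, had a peak in 5, 5, 3 and 1 of the lists. *Nos2* and *Nos3* had none in any list, so that 7 of the 9 had a promoter peak in at least 1 list (65.7% of all genes) and 2 had none (34.3% of all genes). Considered by antibody, 4 of the 9 genes had a promoter peak in all 3 PBRM1 lists (44.2% of all genes) and 4 had one in all 3 BRG1 lists (50.0% of all genes). With 9 genes these counts lie near the background and are given as a description. Where peaks were called they were low. The mean over the 6 libraries was 1.09 FPM for *Prkg1*, 0.942 for *Pde3a* and 0.835 for *Npr3*, against a median of 1.63 (interquartile range 1.30 to 2.09) for the 9081 genes with a promoter peak in all 6 lists. They ranked at percentiles 11.6, 5.02 and 2.13 of those genes.

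**Figure D1:**
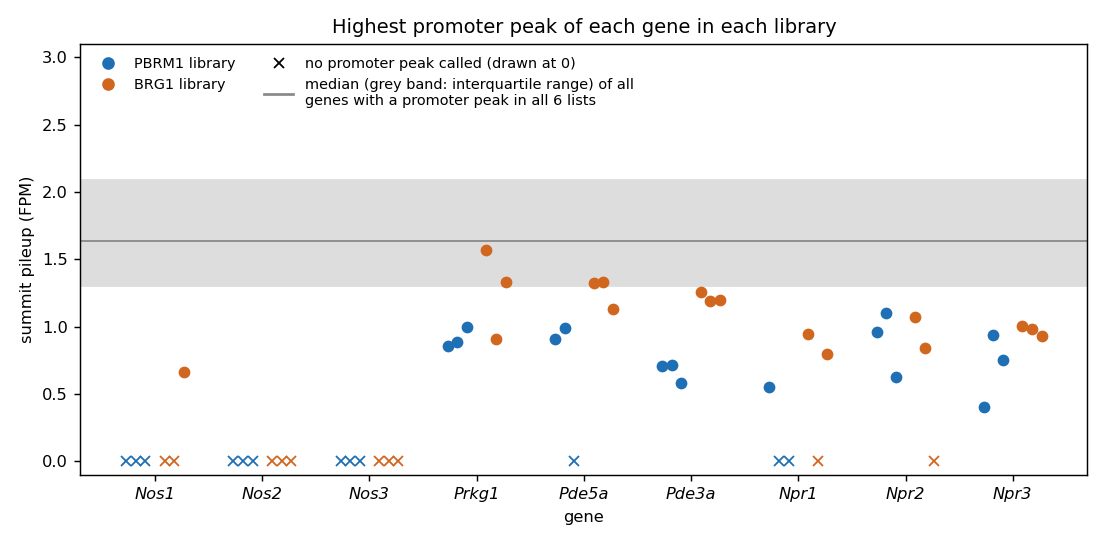
Each point is the highest promoter peak of a gene in 1 library, as summit pileup in FPM (y axis), for the 9 genes (x axis). Crosses at 0 mark libraries without a called peak, and the grey line and band give the median of 1.63 and the interquartile range of genes with a promoter peak in all 6 lists. The 4 points within the band are BRG1 libraries at *Prkg1* and *Pde5a*, and the other called points lie below it.

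The synthase genes had the least. *Nos1* (chr5:117781032-117958840, plus strand), which encodes the neuronal enzyme, had a promoter peak in BRG1 library 3 alone, with 10 fragments (0.665 FPM), 103 bp downstream of the start of the transcript Nos1-206. The pooled BRG1 list held a peak there with 27 fragments and another 1643 bp upstream of Nos1-205 with 20 fragments, while the pooled PBRM1 list held none. The best supported region of the *Nos1* locus lay downstream of the gene at the start of *Fbxo21*, in 5 of 6 lists, with 18, 21 and 27 fragments in the PBRM1 libraries and 26 and 28 in BRG1 libraries 1 and 3.

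*Nos2* (chr11:78920787-78960254, plus strand) encodes the inducible synthase. No replicate list had a peak within 2 kb of its starts, and the pooled BRG1 list alone had one, of 27 fragments, 58 bp upstream of Nos2-203. Its locus did hold a distal region called in all 6 lists (chr11:78972990-78973753), beyond the 3′ end of *Nos2* and inside an intron of *Lgals9*, 3128 bp from the nearest *Lgals9* start. The PBRM1 libraries had 20, 20 and 17 fragments there (0.941 ± 0.206 FPM, SD, n = 3) and the BRG1 libraries 22, 13 and 15 (1.10 ± 0.252 FPM, SD, n = 3). The values of the 2 antibodies overlapped.

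*Nos3* (chr5:24364810-24384474, plus strand), the endothelial synthase gene, had no promoter peak in any replicate or pooled list. The region nearest to its start lay 3998 bp upstream and was called in 2 lists, with 13 fragments in PBRM1 library 3 and 14 in BRG1 library 1. Peaks were nonetheless dense in the locus, with 6.70 per 100 kb on average over the 6 lists, and 6 of its 9 regions were at promoters of neighbours (*Kcnh2*, Gm15587, *Atg9b* and *Abcb8*). The *Abcb8* start carried the strongest of them, called in all 6 lists at 29 to 50 fragments. The 3 synthase genes were also poor in CpG around the gene start, with observed to expected ratios in 1 kb of 0.224 for *Nos1*, 0.170 for *Nos2* and 0.307 for *Nos3*. In the lowest quartile of protein-coding genes by this ratio, 6.48% had a promoter peak in all 6 lists, against 27.2%, 64.1% and 69.4% in the higher quartiles. By this ratio, *Nos2* was in the lowest quartile and *Nos1* and *Nos3* in the next. The CpG ratio was looked up after the promoter calls were seen, and its part in them was not tested.

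*Prkg1* (chr19:30564489-31765033, minus strand) encodes the cGMP-dependent kinase of smooth muscle and spans 1200.55 kb. Its promoter peaks did not all stand at the same start. The start of the protein-coding transcript Prkg1-202, which lies inside the gene, had a region in all 6 lists (chr19:31663905-31665172). The summit of that region was 100.8 kb downstream of the outermost start. The PBRM1 libraries had 17, 16 and 16 fragments there (0.803 ± 0.118 FPM, SD, n = 3) and the BRG1 libraries 18, 13 and 20 (1.12 ± 0.210 FPM, SD, n = 3). In FPM, each BRG1 library was above each PBRM1 library, as at 56.8% of regions in all 6 lists genome-wide. At the outermost starts, Prkg1-201 and Prkg1-206, the region (chr19:31764021-31765007) was called in 4 lists, with 24 fragments in PBRM1 library 3 and 25, 13 and 16 in the BRG1 libraries. PBRM1 libraries 1 and 2 had no peak at that start. A further promoter region, 1919 bp from the starts of Prkg1-204 and Prkg1-207 near the 3′ end of the gene, just inside the 2 kb limit, was called in 3 lists with 11 fragments in each.

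Just outside the 2 kb limit, 2069 bp downstream of the Prkg1-206 start, lay the distal region whose sequence is given above (chr19:31762692-31763428). It was called in PBRM1 library 1 with 25 fragments and in all 3 BRG1 libraries with 22, 20 and 28 (1.55 ± 0.272 FPM, SD, n = 3). Both pooled lists had a peak there, at 62 fragments for PBRM1 and 70 for BRG1.

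The *Prkg1* locus held 85 of the 131 regions of all 9 loci, 79 of them with a summit in an intron. Of the 85, 53 (62.4%) were called in a single list and 3 (3.53%) in all 6, while genome-wide 47.0% of regions were in 1 list and 15.5% in all 6. For the other 8 loci together the shares were 39.1% and 15.2% of 46 regions. Of the 85 *Prkg1* regions, 81 were distal, and 53.7% of distal regions genome-wide were in 1 list. The 6 replicate lists had 24 to 32 peaks each in the *Prkg1* locus, and the pooled lists, which hold more fragments, had 108 for PBRM1 and 93 for BRG1. Set against its length the replicate density was 2.27 peaks per 100 kb. This was near the median of 2.51 for all protein-coding loci (percentile 46.2) and at percentile 91.7 of the 230 loci of genes of at least 500 kb, whose median was 0.623. The class of long genes was chosen after the counts were seen and carries no test.

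**Figure D2:**
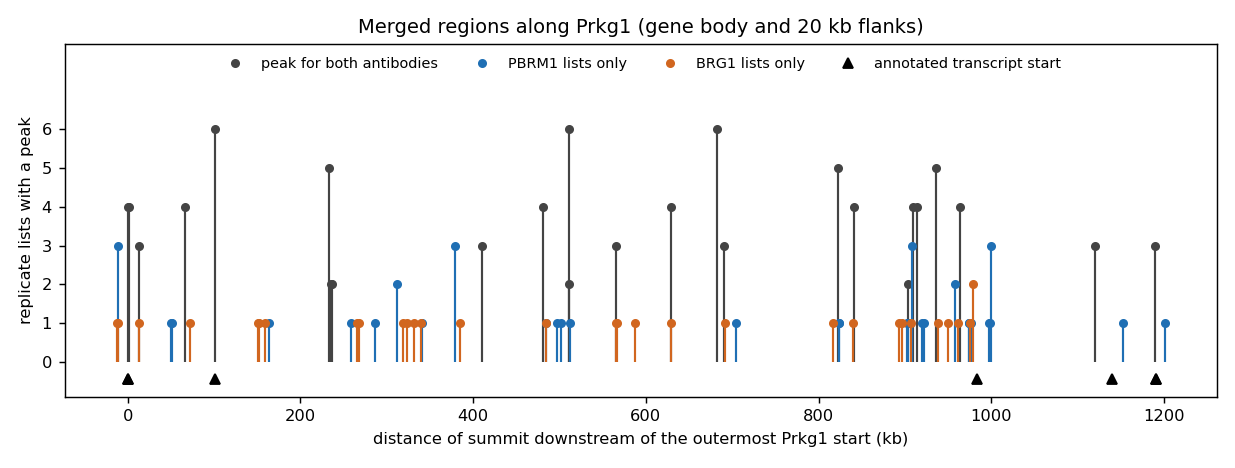
Each stem is a merged region of the *Prkg1* locus, placed by the distance of its summit downstream of the outermost start in kb (x axis) and as tall as the number of replicate lists with a peak there (y axis). The 3 regions in all 6 lists stand near 101, 511 and 682 kb, and 53 of the 85 stems have a height of 1.

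Inside *Prkg1*, a distal intronic region was called in all 6 lists (chr19:31253281-31253738). It had 15, 15 and 20 fragments in the PBRM1 libraries (0.806 ± 0.0421 FPM, SD, n = 3) and 15, 10 and 8 in the BRG1 libraries (0.725 ± 0.207 FPM, SD, n = 3), with overlapping values. At 8 fragments it was near the calling limit in BRG1 library 3. The other region called in all 6 lists was the promoter of *Cstf2t*, an RNA 3′-end processing gene that lies within an intron of *Prkg1* (chr19:31082439-31083210). It had 36, 24 and 37 fragments for PBRM1 and 49, 35 and 39 for BRG1, the highest values in the locus, and belongs to another gene. A further 12 regions of the locus were called in 4 or 5 lists, of which 11 were distal. They included chr19:30942431-30943016 and chr19:31530805-31531854, each in all 3 PBRM1 lists and 2 BRG1 lists.

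Regions called in all 3 lists of PBRM1 and in no BRG1 list were found at 4 of the 85 *Prkg1* regions (4.71%, against 1.22% of regions genome-wide), and the reverse at none (0.916% genome-wide). All 4 were distal. The strongest (chr19:30856293-30856615) had 20, 14 and 29 PBRM1 fragments, and the other 3 had between 10 and 17 in each PBRM1 library. Absence of a BRG1 call was not absence of signal at each of them, since the pooled BRG1 list had a peak at 2 of the 4, with 28 fragments at the strongest and 20 at chr19:31385466-31385934. It had none at chr19:30765546-30766129 or at chr19:31776389-31776995, which lies 11632 bp upstream of the Prkg1-201 start. The PBRM1 libraries were deeper than the BRG1 libraries, and the part of depth in these calls was not tested.

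*Pde5a* (chr3:122728947-122859374, plus strand) encodes the phosphodiesterase that breaks down cGMP and is the target of sildenafil. Its promoter signal covered neighbouring starts. A region at Pde5a-202 and Pde5a-204 (chr3:122729385-122730411) was called in 5 lists, with 18 and 18 fragments in PBRM1 libraries 1 and 2 and 21, 19 and 17 in the BRG1 libraries (1.26 ± 0.113 FPM, SD, n = 3). PBRM1 library 3, the deepest, had no promoter peak. The region just upstream at Pde5a-201 (chr3:122728901-122729322) was called in 3 lists with 13 fragments for PBRM1 library 1 and 20 and 15 for BRG1 libraries 1 and 3. In each pooled list these were joined in 1 peak, with 43 fragments for PBRM1 (0.695 FPM) and 56 for BRG1 (1.24 FPM). The 6 distal regions of the locus were weakly supported, the best of them in an intron (chr3:122763192-122763663) in 3 lists at 10 to 14 fragments.

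*Pde3a* (chr6:141249269-141507448, plus strand) encodes a phosphodiesterase that hydrolyses cAMP and is inhibited by cGMP, so that a rise of cGMP can also raise cAMP. Its promoter region (chr6:141249322-141250445) overlaps exons of *Pde3a* and of the noncoding gene Gm28523, and was called in all 6 lists. The PBRM1 libraries had 14, 13 and 14 fragments (0.669 ± 0.0745 FPM, SD, n = 3) and the BRG1 libraries 20, 17 and 18 (1.22 ± 0.0373 FPM, SD, n = 3). The spread within each antibody was small. Each BRG1 library was above each PBRM1 library, as at 56.8% of regions in all 6 lists genome-wide. Of its 10 distal regions, all intronic, none was called in more than 3 lists. A region 131261 bp downstream of the start of Pde3a-202 (chr6:141380948-141381305) was called in all 3 BRG1 lists, with 11, 10 and 14 fragments, and in no PBRM1 replicate list. It was the only such region of the 131 in the 9 loci (0.763%, against 0.916% of regions genome-wide). The pooled PBRM1 list had a peak of 21 fragments over it.

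The natriuretic peptide receptors differed in where their support lay. *Npr1* (chr3:90450591-90465866, minus strand), the receptor cyclase for atrial and B-type natriuretic peptides, had a promoter peak in 3 lists, at different sites. BRG1 libraries 1 and 3 had 15 and 12 fragments 470 bp downstream of the start, and PBRM1 library 1 had 11 fragments 767 bp upstream. Both pooled lists had peaks at both sites. It had the highest CpG ratio of the 9 genes, 0.828, in the quartile where 69.4% of genes had a promoter peak in all 6 lists. The regions with full support in its locus lay elsewhere. A distal region 3′ of the gene (chr3:90446335-90446945), 5187 bp from its nearest annotated start, had 21, 20 and 19 fragments for PBRM1 (0.985 ± 0.169 FPM, SD, n = 3) and 19, 26 and 17 for BRG1 (1.38 ± 0.381 FPM, SD, n = 3). The promoter of *Ints3*, a subunit gene of the Integrator complex, had 38 to 48 fragments for PBRM1 and 46 to 68 for BRG1.

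*Npr2* (chr4:43631935-43651244, plus strand), the receptor cyclase for C-type natriuretic peptide, had a promoter peak in 5 lists. For 4 of them the peak was the region 1734 bp upstream of the start (chr4:43630116-43630559), just inside the 2 kb limit, with 19 and 20 fragments in PBRM1 libraries 1 and 2 and 17 and 12 in BRG1 libraries 1 and 2. In PBRM1 library 3 it was another region, 232 bp upstream, with 15 fragments. A start of another gene, Gm25262, lay 1224 bp from the first region, nearer than the *Npr2* start, and 278 bp from the second. The pooled lists had peaks at both sites. With a limit of 1 kb in place of 2 kb, *Npr2* had a promoter peak in 1 list. The regions of the locus in all 6 lists were both at promoters of other genes, *Hint2* and *Tmem8b*.

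*Npr3* (chr15:11839896-11907287, minus strand), the clearance receptor, which lacks a guanylyl cyclase domain and removes natriuretic peptides, had a promoter peak in all 6 lists, but in PBRM1 library 1 at a different start. The region at the outermost start, Npr3-204 (chr15:11906753-11907509), was called in 5 lists with 17 and 18 fragments in PBRM1 libraries 2 and 3 and 16, 14 and 14 in the BRG1 libraries (0.973 ± 0.0382 FPM, SD, n = 3). Its summit lay in exons of *Npr3* and of Gm5144. PBRM1 library 1 had 8 fragments near Npr3-202, an internal start of a noncoding transcript, and when only starts of protein-coding transcripts were used *Npr3* had a peak in 5 lists. A distal region 3′ of the gene (chr15:11836025-11836573) was called in 4 lists, with 18 fragments in PBRM1 library 1 and 17, 11 and 18 in the BRG1 libraries.

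Across the 9 loci, 10 of the 131 regions (7.63%) were called in all 6 lists and 71 (54.2%) in 1 list, where the genome-wide shares were 15.5% and 47.0%. The *Prkg1* locus carried the low value, with 3.53% of its regions in all 6 lists against 15.2% in the other 8 loci. Most of its regions were distal (81 of 85), and the part of region class in this was not tested. Of the 10, only 2 were at the promoters of the genes themselves, those of *Prkg1* and *Pde3a*, 5 were at promoters of neighbours and 3 were distal, in the loci of *Nos2*, *Prkg1* and *Npr1*. Genome-wide, 14.2% of protein-coding loci had a distal region in all 6 lists. Of the 105 distal regions, 64 (61.0%) were in a single list, against 53.7% of distal regions genome-wide.

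**Figure D3:**
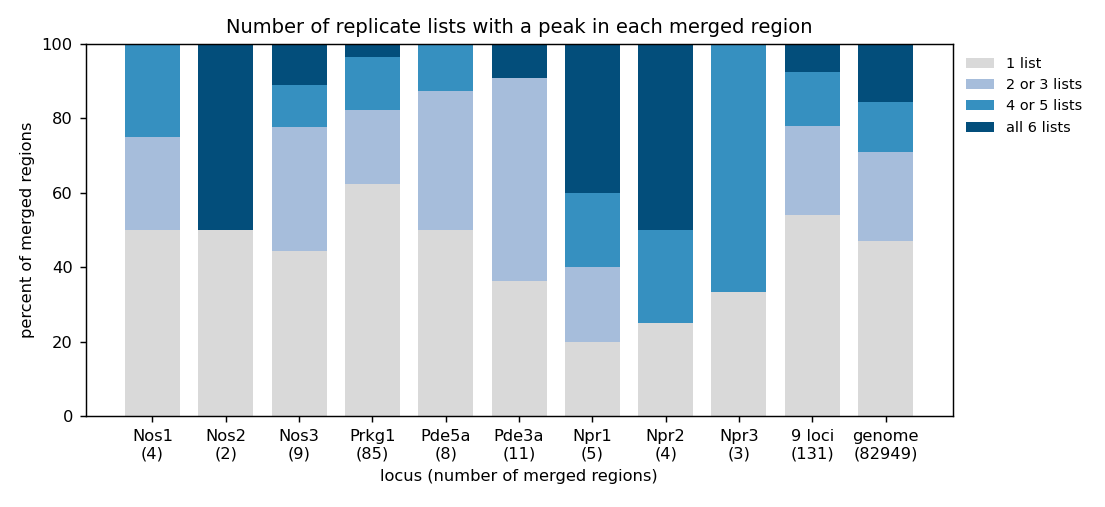
Bars give the percent of the merged regions of each locus (y axis) that had a peak in 1, 2 or 3, 4 or 5, or all 6 replicate lists, with the number of regions under each name (x axis). For *Prkg1* the bar for 1 list reaches 62.4%, against 47.0% of all regions and 53.7% of distal regions (not drawn) genome-wide. Loci with under 10 regions move in large steps.

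The 2 antibodies were then compared. The loci took 0.136% ± 0.00343 of the peaks of the PBRM1 lists and 0.137% ± 0.00243 of the BRG1 lists (SD, n = 3 each), a difference of -0.000516 percentage points (two-sided exact permutation test, p = 0.9, where 3 against 3 cannot give a p below 0.1). For the 10 regions called in all 6 lists, log2 FPM was compared in a limma fit over all 12828 such regions of the genome, with Benjamini-Hochberg adjustment over all of them. Most regions genome-wide were higher for BRG1 on this scale (53.0% called, against 0.413% higher for PBRM1), with a median difference of -0.49 (PBRM1 minus BRG1, log2). A difference at a gene therefore has to be read against that median.

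Among the 10 regions, 5 were higher for BRG1 and none for PBRM1, and at none were all PBRM1 libraries above all BRG1 libraries (0.756% of regions genome-wide). The only promoter of the 9 genes among the 5 was that of *Pde3a*, with a log2 difference of -0.87 (95% interval -1.31 to -0.42, adjusted p = 0.00112, limma), and all 3 BRG1 libraries were above all 3 PBRM1 libraries, as at 56.8% of regions genome-wide. The remaining 4 were promoters of the neighbours *Cstf2t* (-0.80, adjusted p = 0.000298), *Ints3* (-0.89, adjusted p = 3.74e-05), *Hint2* (-1.002, adjusted p = 2.01e-05) and *Tmem8b* (-0.74, adjusted p = 0.0012). When each library was centred on its own median, 2.45% of regions genome-wide were higher for BRG1 and 2.25% for PBRM1. The difference at *Pde3a* was then -0.40 (95% interval -0.82 to 0.02) and was not called (adjusted p = 0.263), and *Hint2* was the only region of the 10 called (-0.54, adjusted p = 0.0449). With fold enrichment in place of pileup (10.7% higher for BRG1 and 0.218% for PBRM1 genome-wide), *Hint2* was not called (-0.45, adjusted p = 0.0669) and *Pde3a* was (-0.55, adjusted p = 0.0316).

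The other regions, including the *Abcb8* promoter (-0.37, adjusted p = 0.0791), were not called on either scaling. At the Prkg1-202 start the log2 difference was -0.48 (95% interval -0.93 to -0.03, adjusted p = 0.0633, limma), which is 0.01 above the median of all regions. In the distal region 3′ of *Npr1*, where each BRG1 library was again above each PBRM1 library, it was -0.47 (95% interval -0.90 to -0.03, adjusted p = 0.0619), and that 3′ of *Nos2* had -0.22 (95% interval -0.67 to 0.22, adjusted p = 0.394). The intronic *Prkg1* region was the only one of the 10 with a positive value, 0.19 (95% interval -0.27 to 0.65, adjusted p = 0.485), which is 0.68 above the median of all regions. Centred on library medians it was 0.66 higher for PBRM1 (95% interval 0.20 to 1.12, adjusted p = 0.0821), but its sign turned with fold enrichment in place of pileup (-0.33, adjusted p = 0.243) and without BRG1 library 3 (-0.0127, adjusted p = 0.97). The intervals are wide, and levels that were not called apart were not shown to be alike.

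**Figure D4:**
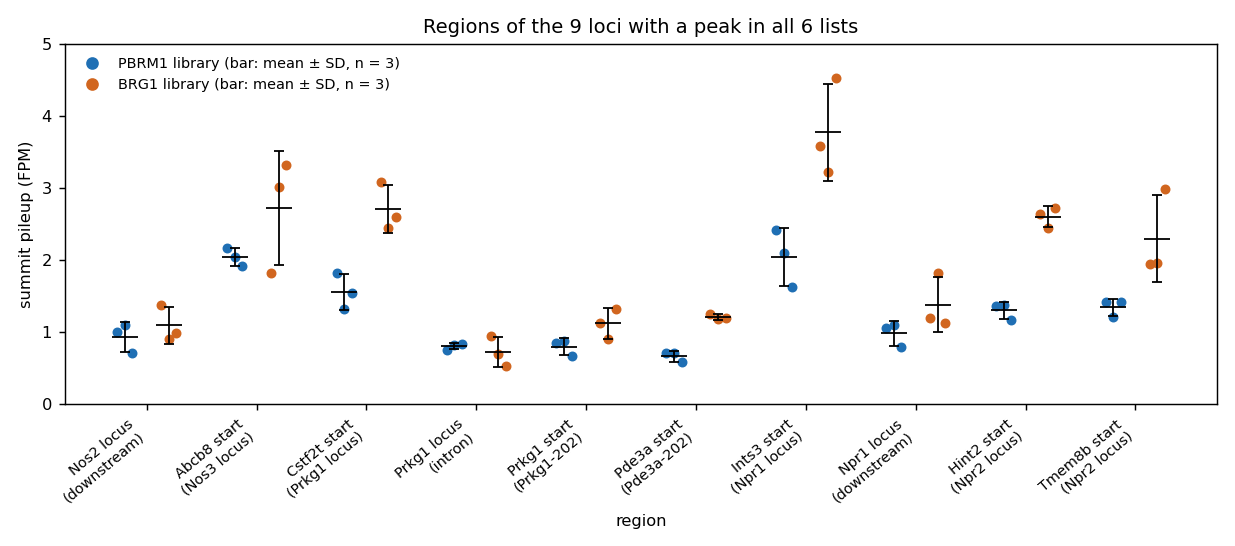
Points are the summit pileup in FPM (y axis) of each library at the 10 regions with a peak in all 6 lists (x axis), with the mean and SD of 3 libraries per antibody. BRG1 points lie above PBRM1 points without overlap at 7 regions, against 56.8% of regions genome-wide, among them the *Pde3a* and Prkg1-202 starts and the region 3′ of *Npr1*, and the antibodies overlap at the distal *Nos2*, the *Abcb8* and the intronic *Prkg1* regions.

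The other genes of the pathway were described by a list of 36. Of these, 17 (47.2%, against 41.8% of all protein-coding genes) had a promoter peak in all 6 lists, 14 in some lists and 5 in none. Soluble guanylyl cyclase, the receptor of nitric oxide, had peaks in all 6 lists for *Gucy1a1* and *Gucy1a2* and in 5 for *Gucy1b1*, at 0.683 FPM for *Gucy1a1* and 1.12 for *Gucy1a2* (means over 6 libraries). These were low, at percentiles 0.507 for *Gucy1a1* and 13.1 for *Gucy1a2* among genes with a promoter peak in all 6 lists. Enzymes that supply the synthases with the cofactor tetrahydrobiopterin or clear their inhibitor had such a peak for 6 of 8 genes, among them *Gch1* at 1.32 FPM, *Pts* at 2.24 FPM and *Spr* at 1.68 FPM (means over 6 libraries). *Arg1*, an arginase that competes for arginine, had none. Among the partners of the synthases, 3 of 5 had a peak in all 6 lists (*Cav1*, *Nosip* and *Dynll1*).

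The counts of the next 3 lists stand beside 41.8% of all protein-coding genes with a promoter peak in all 6 lists. The lists are short, differences between them were not tested, and the counts are given as a description. Kinase substrates and effectors had a promoter peak in all 6 lists for 4 of 6 genes. These were *Mrvi1*, which encodes the PRKG1 substrate IRAG at the calcium store, *Ppp1r12a*, the targeting subunit of myosin phosphatase, *Vasp* and *Rgs2*. Their means over 6 libraries were 1.07, 1.49, 1.87 and 2.50 FPM, in that order. Of the other 2 genes of that list, 1 had a peak in some lists and 1 in none. The other phosphodiesterases and the cGMP kinase gene *Prkg2* had such a peak for 2 of 8 genes (*Pde2a* and *Pde10a*), with the remaining 6 in some lists. Among the natriuretic peptides and their processing enzymes it was 0 of 6, and *Nppa*, *Ostn* and *Corin* had no peak in any list. The other 3 genes of that list had one in some lists. Of the 3 receptor genes described above, *Npr3* had a promoter peak in all 6 lists, *Npr2* in 5 and *Npr1* in 3.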

How the data were processed

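ChIC-Seq libraries for PBRM1 and BRG1 (3 replicates each) were represented by 8 deposited peak lists, 1 for each library and 1 for each antibody on pooled replicates. The 3 IgG samples were not analysed here. Per the labels, the submitters' processing notes name cutadapt, Bowtie2, MACS2 and the build GRCm38.p5. Filters on mapping quality and duplicates are not given in the sources used here. Peaks had been called by the authors, per the file headers, in the narrow mode of MACS 2.2.7.1 on paired ends, keeping every fragment, at a q cutoff of 0.05. No control was used, so the local background came from 10 kb of the same library. Sites that the nuclease cuts without the antibody could therefore be called too. The deposited pileup is a signal, the unscaled coverage by fragments at the summit. Fold enrichment, also deposited, is pileup as a ratio to local background. The deposited −log10 q was used only to filter peaks, and the deposited −log10 p-value and peak length were not tested.

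Pileup was divided by the fragments in the file header and multiplied by 1000000 (FPM; Python 3.11.15, numpy 2.4.6, pandas 2.3.3, scipy 1.17.1). Peaks sharing at least 1 bp were merged into regions on the autosomes and X. Genes came from GENCODE M21 and sequence from GRCm38.p6 (pysam 0.24.0), and no peak lay beyond the end of a chromosome. Antibodies were compared with limma 3.58.1 (R 4.3.3, empirical Bayes with trend, adjusted p threshold 0.05, Benjamini-Hochberg) on log2 FPM with no pseudocount, over regions with a peak in all 6 lists, so that no value was imputed, and by exact permutation over libraries. Whether replicates were separate cultures or animals is not stated, so p-values measure the spread between libraries, which may be technical.

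The 9 genes, the 36 other pathway genes and the marker lists were chosen with earlier results of these data known. All 9 genes are named, with their promoter regions and any distal region in all 6 lists. Other regions are named as the best supported of a locus or as called for 1 antibody only, and were chosen after their values were seen. Other pathway genes are named up to 4 per list. Sequence windows came from exon-free parts of the strongest own-promoter or distal region in at least 4 lists, for up to 6 genes.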

Additional observations from a re-analysis of the deposited data

How the results depend on the processing

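Of 192 values recomputed for 17 results under alternatives, 156 kept their direction and side of the threshold or, for counts, stayed within 1.5 times the reported count. With only peaks of −log10 q of at least 5, 0 genes had a promoter peak in all 6 lists (against 3) and 5 regions were in all 6 lists (against 10). Genome-wide, regions in all 6 lists went from 12828 to 6505 at this cutoff. The share of all genes with such a promoter peak at this cutoff is not given here, so the loss is not shown to be particular to these loci. A flank of 50 kb gave 16 regions in the loci. Without 1 library, the genes with full promoter support numbered 3 to 4 and the regions 10 to 13.

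The difference in the share of peaks between antibodies changed sign with a flank of 50 kb (0.00904, p = 0.1, exact permutation) and ranged from -0.00248 to 0.000762 when each library was left out. It reversed without PBRM1 library 1 (0.000669), PBRM1 library 2 (0.000265) or BRG1 library 2 (0.000762).

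The antibody comparison depended on scaling. As reported, 6852 regions genome-wide were called (6799 higher for BRG1, 53 for PBRM1), against 602 (314 and 288) with median centring and 1400 (1372 and 28) with fold enrichment, and −log10 q of at least 5 left 12 higher for PBRM1. Leaving out libraries gave 5027 to 6460 calls (4977 to 6427 higher for BRG1, 30 to 66 for PBRM1, with 33, 30 and 32 without PBRM1 library 1, PBRM1 library 2 and BRG1 library 3) and 5 to 6 called regions in the 9 loci. Of the 10 regions, 5 were called as reported, 1 with median centring and 3 with fold enrichment. Under these scalings the sign turned for the *Nos2* region (0.24 and 0.18) and *Abcb8* (0.10 and 0.0753), and with fold enrichment for the intronic *Prkg1* region (-0.33), which ranged from -0.0127 (without BRG1 library 3) to 0.40 when each library was left out. Among the alternatives in which the *Pde3a* region could be tested, its call was lost with median centring only, while *Hint2* lost its call with fold enrichment only (-0.45). The call at the Prkg1-202 start was gained with 1 fragment added to pileup (-0.48, adjusted p = 0.0497, limma) and without BRG1 library 2 (-0.62, adjusted p = 0.0322), the region 3′ of *Npr1* was called without PBRM1 library 2 (-0.56, adjusted p = 0.0483) or BRG1 library 3 (-0.60, adjusted p = 0.0455), and *Abcb8* without BRG1 library 1 (-0.63, adjusted p = 0.00995). The cause was not tested.

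Same-numbered libraries of the antibodies correlated at 6.19e-05, 0.00349 and -0.0288 in their deviations from the antibody means. These values cannot show whether such libraries came from the same cells, which is not stated. With the replicate block 6638 regions were called genome-wide and 5 in the 9 loci, and the share of peaks did not change its call.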
